A study of Mus musculus with 12 samples.

Results

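Genes known from neurons, 10 in all, were followed in kidney cells: the microtubule-binding proteins Map2, Mapt (tau), Map1b and Dcx (doublecortin), the tubulin Tubb3, the stathmin Stmn2, the neurofilament Nefl, the growth cone protein Gap43, the adhesion molecule Ncam1 and the ubiquitin hydrolase Uchl1. They were chosen by gene symbol, and 8 of these 10 had a row among the 23378 genes of the count table. Tubb3 and Gap43 are not analysed here. Of the 8 genes, 7 passed the filter on low counts and were tested together with the other genes that passed, 14180 in all. Dcx fell below that filter and is described by its counts.

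The RNA came from kidney cortex of C57BL/6 mice that carried the nNosCreERT2 driver and the mTmG reporter. In these mice cells with an active neuronal nitric oxide synthase driver, once induced, turn green (membrane eGFP) and other cells stay red (membrane tdTomato). The macula densa samples are sorted green cells. The control samples are the red cells of highest brightness, which the labels take to stand for distal tubule and collecting duct epithelium. Mice received either control diet or, for 14 days, low salt food and drinking water with 150 mg/L enalapril, which blocks formation of angiotensin II; this second treatment is called the enalapril diet below. Each diet gave 2 macula densa libraries and 4 control-cell libraries. Sex and age are not given in the sources used here. The labels do not say that the libraries of a group came from separate mice, so p-values measure the spread between libraries.

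Total counts per library ran from 4259020 to 14856542, but counts in protein-coding nuclear genes ran from 781257 to 2331481, and the ribosomal RNA-related gene Gm42418 took 53.5% to 65.0% of a library. Levels are CPM, the usual unit of counts scaled to a common library size, and 3 counts were worth 0.231 to 0.734 CPM. In the green libraries 6 macula densa markers summed to 2151 to 3087 CPM, and in control cells to 44.6 to 434 CPM. Most of that sum was Slc12a1, also a thick ascending limb gene, with means of 1920 and 202.5 CPM. Nos1, the gene of the synthase driver, averaged 141 against 0.444 CPM and Pappa2 404 against 0.657 CPM. In the test described below 5 of the 6 were higher in macula densa cells, and Ptges did not pass (edgeR adjusted p = 0.415). The red libraries held markers of their labelled segments together with markers of cells outside the label. Principal cell markers summed to 97.9 to 844 CPM, intercalated cell markers to 21.9 to 349.5 CPM and markers of the distal convoluted and connecting tubule to 102 to 809 CPM, while 7 podocyte markers summed to 43.7 to 1352 CPM and 7 endothelial markers to 44.9 to 1552 CPM. Replicate 4 of the control cells on control diet stood apart, with the lowest podocyte and endothelial sums and the highest principal cell sum of the 8, so results are also given without it where it moved them. In bulk RNA, fewer cells of a type and less RNA per cell cannot be told apart.

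Neurons keep their long processes in shape with bundled microtubules, stabilised by proteins of the MAP and tau families, and with neurofilaments that set axon calibre. Stathmins and growth cone proteins keep the tips of growing processes dynamic, and Ncam1 holds neighbouring cells together. The macula densa is a plaque of tubular epithelium beside the glomerulus that senses luminal salt and signals to the glomerular arterioles and renin cells. Its cells can extend basal processes, and the question here is which neuronal genes they express compared with the control cells.

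Promoter sequence is shown for Map1b and Uchl1, the microtubule and hydrolase genes whose levels were lower in macula densa cells, and for Map2, which did not pass the test. RefSeq promoters (GRCm38.p6) held 5 of the 10 genes. Each stretch ends just before the most upstream annotated start and is written 5′ to 3′ on the gene's strand, with matches to GGGCGG, the core of the GC box, in capitals. The Map1b stretch is chr13:99516603-99516852 on the minus strand, the Uchl1 stretch chr5:66675871-66676090 on the plus strand, and the Map2 stretch chr1:66175079-66175272 on the plus strand.
Map1b: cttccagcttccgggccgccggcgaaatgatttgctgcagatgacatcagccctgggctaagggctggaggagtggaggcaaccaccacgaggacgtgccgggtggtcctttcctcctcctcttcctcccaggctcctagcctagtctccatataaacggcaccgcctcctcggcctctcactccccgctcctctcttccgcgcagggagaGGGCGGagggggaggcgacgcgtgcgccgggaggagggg
Uchl1: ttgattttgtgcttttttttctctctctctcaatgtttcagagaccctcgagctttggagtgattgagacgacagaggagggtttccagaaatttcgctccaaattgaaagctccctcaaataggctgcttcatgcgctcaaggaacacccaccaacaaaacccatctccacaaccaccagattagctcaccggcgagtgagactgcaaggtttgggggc
Map2: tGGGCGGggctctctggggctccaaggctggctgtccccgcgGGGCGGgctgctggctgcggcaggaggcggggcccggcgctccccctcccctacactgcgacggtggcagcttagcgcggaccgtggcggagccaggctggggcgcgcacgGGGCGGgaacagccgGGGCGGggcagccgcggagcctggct

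The 3 stretches differed in composition. GC content was 79.4% in Map2, 66.4% in Map1b and 48.2% in Uchl1. On both strands, GGGCGG was found 4 times in the 194 bases of Map2 and 1 time in the 250 bases of Map1b, and not in the 220 bases of Uchl1. Among 32851 RefSeq promoters, 23.6%, 32.7% and 28.5% held it in a window of 194, 250 and 220 bases. TATAAA, the TATA box core, was found in the Map1b stretch only, and 12.4% of promoters hold it in 250 bases. CANNTG, the E-box, was also found in Map1b only, against 66.2% of promoters at that length. The letters TCAGCACC, the left part of the RE1 element bound by the repressor Rest, occurred in none of the 3, and in 1.02% to 1.32% of promoters at these lengths. The right part, GGACAG, occurred in Map2 alone, where 15.1% of promoters hold it in 194 bases. CCAAT occurred in none of the 3, against 27.5% to 33.8% of promoters. These matches describe the letters only.

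Macula densa cells differed from control cells in 4 of the 7 tested genes when the comparison was averaged over both diets (edgeR quasi-likelihood test, Benjamini-Hochberg adjusted p under 0.05), against 21.3% of all genes tested. Map1b and Uchl1 were lower in macula densa cells, against 13.9% of all genes called lower. Uchl1 passed the filter on low counts only through control-cell libraries, so its call is no separate support. Nefl and Ncam1 were higher, against 7.48% of all genes called higher. Map2, Mapt and Stmn2 did not pass. Without control-cell replicate 4 on control diet the count was again 4, with 3968 of 14079 genes called. The comparisons within a diet come from the same fit over all 12 libraries. On control diet none of the 7 passed, against 6.61% of all genes, although 4 had an unadjusted p under 0.05, as 24.2% of all genes did. The DESeq2 test called 2 of the 7 on that diet, and 2000 of all 14180 genes. On the enalapril diet Map1b passed, 1 of 7 against 7.27% of all genes (4.13% called lower). There DESeq2 called 2 of the 7, and 1922 of all 14180 genes. Without control-cell replicate 4 on control diet, 3 of the 7 passed on each diet. Of all 14079 genes then tested, 2490 passed on control diet and 1894 on the enalapril diet.

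**Figure D1:**
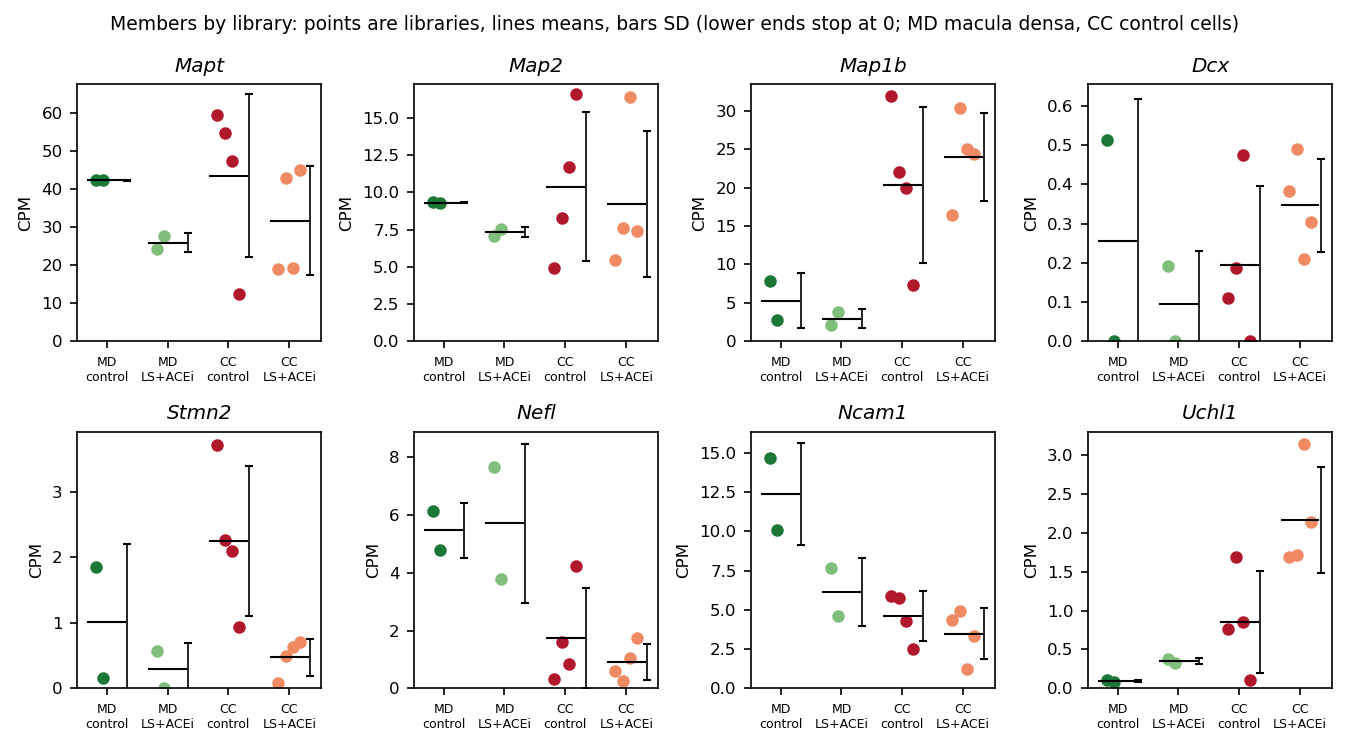
CPM (y axis) of the 8 genes in each library (points) of the 4 groups (x axis: MD, macula densa; CC, control cells; LS+ACEi, the enalapril diet), with horizontal lines for means and vertical bars for SD, whose lower ends stop at 0. Map1b and Uchl1 lie low in the macula densa groups, Nefl and Ncam1 lie high there, and the Mapt, Map2, Stmn2 and Dcx points of the cell populations overlap.

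The microtubule-binding proteins did not move as 1 group. Mapt (chr11:104231390-104332090, plus strand) encodes tau, which binds along axonal microtubules. Its levels in macula densa cells were 42.4 and 42.2 CPM on control diet and 24.1 and 27.6 CPM on the enalapril diet. In control cells they were 59.5, 54.6, 47.4 and 12.4 CPM on control diet and 19.1, 42.8, 19.3 and 45.1 CPM on the enalapril diet. All 4 macula densa libraries lay within the range of the 8 control-cell libraries. The averaged log2 fold change was -0.16 (SE 0.37, edgeR adjusted p = 0.798), with -0.040 (SE 0.52) on control diet and -0.29 (SE 0.53) on the enalapril diet. The fitted sign of these small differences depended on the scaling: with library totals alone the averaged value was 0.0028 and the control diet value 0.12. In the description labels 4 macula densa libraries each share a number with 1 control-cell library, and Mapt was lower in the macula densa library of all 4 such pairs (42.4 against 54.6, 42.2 against 47.4, 24.1 against 42.8 and 27.6 against 45.1 CPM). With that number as a block the averaged log2 fold change was -0.52 (edgeR adjusted p = 0.0209). Control-cell libraries that share no number carry no weight in that contrast. They include the lowest Mapt values, 12.4, 19.1 and 19.3 CPM, and the highest, 59.5 CPM. The Mapt call thus depends on which control-cell libraries are compared. It also depends on whether the number marks a shared source, which the labels do not say.

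Mapt varied more among control cells than among macula densa cells, and its control-cell levels lay beside the podocyte sums and the endothelial sums alike. The 5 control-cell libraries with podocyte sums of 689 to 1352 CPM had Mapt at 42.8 to 59.5 CPM, and the 3 with sums of 43.7 to 215 CPM had Mapt at 12.4 to 19.3 CPM. The same 5 libraries had endothelial sums of 854 to 1552 CPM, and the same 3 had 44.9 to 343 CPM. The macula densa libraries had podocyte sums of 19.2 to 153 CPM and endothelial sums of 13.5 to 174 CPM, and yet Mapt at 24.1 to 42.4 CPM. The part of podocytes or endothelium in the control-cell level was not tested.

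**Figure D2:**
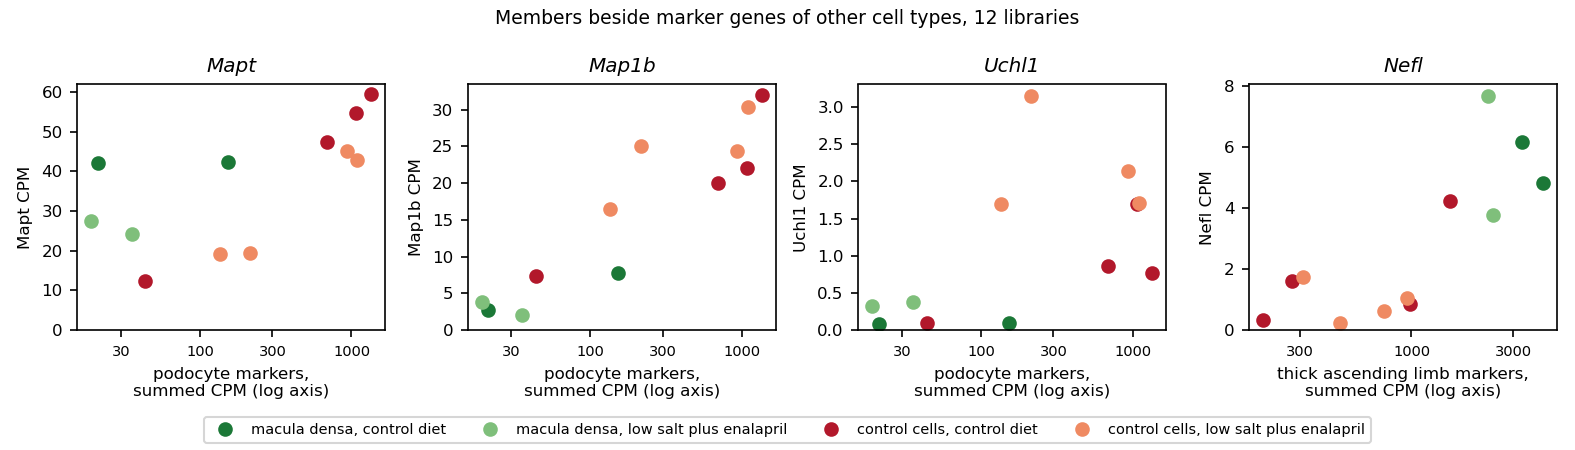
CPM of Mapt, Map1b and Uchl1 (y axes) against the summed CPM of 7 podocyte markers, and of Nefl against 7 thick ascending limb markers (x axes, log scale), 1 point per library for 12 libraries, coloured by group. Macula densa libraries sit at podocyte sums of 19.2 to 153 CPM with Mapt at 24.1 to 42.4 CPM, while the 3 control-cell libraries with sums up to 215 CPM have Mapt at 12.4 to 19.3 CPM.

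Map2 (chr1:66175273-66442583, plus strand) encodes the protein that spaces dendritic microtubules. It was measured at 9.34 and 9.29 CPM in macula densa cells on control diet and at 7.09 and 7.55 CPM on the enalapril diet. Control cells had 4.92, 8.27, 11.7 and 16.6 CPM on control diet and 5.46, 7.59, 16.4 and 7.43 CPM on the enalapril diet. The macula densa values fell in the middle of the control-cell range. The averaged log2 fold change was -0.23 (SE 0.34, edgeR adjusted p = 0.675), a difference smaller than the spread between libraries. On control diet it was -0.16 (SE 0.46), but 0.036 with library totals alone and 0.16 without control-cell replicate 4 on control diet. On the enalapril diet it was -0.31 (SE 0.49), and 0.11 without control-cell replicate 3 of that diet.

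Map1b (chr13:99421446-99516540, minus strand) encodes the microtubule-associated protein that is prominent early in axon growth. Macula densa cells had 7.80 and 2.77 CPM on control diet and 2.11 and 3.77 CPM on the enalapril diet. Control cells had 31.9, 22.1, 20.0 and 7.34 CPM on control diet and 16.4, 30.4, 24.99 and 24.4 CPM on the enalapril diet. Of the 4 macula densa libraries 3 lay below every control-cell library, and the remaining macula densa value, 7.80 CPM, lay just above the lowest control-cell value, 7.34 CPM in replicate 4 on control diet. Averaged over both diets Map1b was 5.58-fold lower in macula densa cells (log2 fold change -2.48, SE 0.42, edgeR adjusted p = 0.00199). It passed with every library left out in turn, with adjusted p-values up to 0.0143.

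Within a diet Map1b was 8.04-fold lower on the enalapril diet (log2 fold change -3.01, SE 0.62, edgeR adjusted p = 0.0156). With 1 macula densa library of that diet left out, the adjusted p was 0.0868 without replicate 1 and 0.0910 without replicate 2. The control diet value was a log2 fold change of -1.95 (SE 0.56, edgeR adjusted p = 0.0575). That adjusted p reached 0.00522 without control-cell replicate 4 and 0.00713 in DESeq2. No other left-out library gave a call on control diet, and the log2 fold change ran from -2.84 to -1.32. Among control cells Map1b was 7.34 CPM at the lowest podocyte sum, 43.7 CPM, and 31.9 CPM at the highest, 1352 CPM. In the libraries between, Map1b was 16.4 CPM at a sum of 135 CPM, 24.99 CPM at 215 CPM and 20.0 CPM at 689 CPM. It was then 24.4 CPM at 930 CPM, 22.1 CPM at 1074 CPM and 30.4 CPM at 1095 CPM. Map1b among control cells thus mostly rose with the podocyte sum, though not at every step. Of 7 podocyte markers 6 were called lower in macula densa cells, and of 7 endothelial markers all 7. Their part in the Map1b difference was not tested.

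The genes whose levels over the 12 libraries were closest to Map1b were Tns2, Ets2 and Clic4, by the root mean square difference of log2 CPM after each gene was centred on its mean. Those differences were 0.29, 0.34 and 0.35, against a standard deviation of 1.37 for Map1b itself. Tns2, a focal adhesion protein, had a mean of 11.1 CPM in macula densa cells and 62.6 CPM in control cells. The corresponding means were 6.93 and 29.9 CPM for the transcription factor Ets2, and 12.5 and 69.0 CPM for the chloride channel-family protein Clic4.

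Dcx (chrX:143855842-143933311, minus strand), the doublecortin of migrating young neurons, was barely detected. Macula densa libraries had 5, 0, 1 and 0 counts, and control-cell libraries had 1, 2, 5 and 0 counts on control diet and 5, 2, 1 and 3 counts on the enalapril diet. Over all libraries that was 6 counts against 19, a ratio of 0.679 after scaling (95% exact interval 0.222 to 1.77, for counting error only). A difference in Dcx was not detectable at this depth.

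Stmn2 (chr3:8509360-8561606, plus strand) encodes the growth-associated stathmin that binds free tubulin. Its macula densa levels were 1.85 and 0.16 CPM (18 and 2 counts) on control diet and 0.57 and 0 CPM (3 and 0 counts) on the enalapril diet. Control cells had 3.72, 2.25, 2.10 and 0.93 CPM on control diet and 0.08, 0.49, 0.63 and 0.71 CPM on the enalapril diet. The macula densa replicates on control diet thus differed more from each other than the macula densa and control-cell means of that diet did. The averaged log2 fold change was -0.94 (SE 0.83, edgeR adjusted p = 0.464). It ran from -3.09 to -0.40 with each library left out.

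In control cells all 4 Stmn2 values on the enalapril diet lay below all 4 on control diet, as for 2.09% of the genes tested. The log2 fold change for that diet effect was -2.29 (SE 0.86), with an unadjusted p of 0.0208 and an edgeR adjusted p of 0.694. Stmn2 passed the filter on low counts only through libraries on control diet, where it was higher. This order and these p-values are therefore no separate support. From pooled counts, 13 against 89, the ratio was 0.184 (95% exact interval 0.0944 to 0.331, counting error only).

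Nefl (chr14:68083863-68089095, plus strand), the light neurofilament subunit that nucleates the axonal filament, was 4.27-fold higher in macula densa cells over both diets. Macula densa cells had 6.16 and 4.81 CPM on control diet and 7.66 and 3.77 CPM on the enalapril diet. Control cells had 0.33, 1.60, 0.86 and 4.24 CPM on control diet and 0.61, 0.24, 1.05 and 1.73 CPM on the enalapril diet. Within each diet both macula densa values lay above all 4 control-cell values, as for 15.2% of genes on control diet and 15.3% on the enalapril diet. Across diets replicate 4 of control cells on control diet, at 4.24 CPM, lay above the lowest macula densa value.

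The averaged log2 fold change of Nefl was 2.10 (SE 0.53, edgeR adjusted p = 0.0152). Leaving out replicate 4 of the control cells on control diet gave 2.54. The call was lost without macula densa replicate 1 on control diet (1.98, edgeR adjusted p = 0.0513) and without macula densa replicate 1 on the enalapril diet (1.79, edgeR adjusted p = 0.0686). For the control diet contrast the log2 fold change was 1.63 (SE 0.71, edgeR adjusted p = 0.184), and 2.52 without control-cell replicate 4 (edgeR adjusted p = 0.0156). No other left-out library gave a call there, and the values ran from 1.32 to 2.52. On the enalapril diet it was 2.56 (SE 0.78, edgeR adjusted p = 0.0663), and 0.0427 and 0.0164 were the adjusted p-values without control-cell replicate 1 and replicate 4 of the control diet, which enter through the shared estimate of spread. Leaving out any other library gave no call on the enalapril diet, and the values ran from 1.92 to 3.08.

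Nefl shares 1108 of its 3380 exon bases with Nefm, the medium neurofilament gene on the opposite strand. The kit keeps strand, but whether counting used it is not given in the sources used here, so the split between the genes is uncertain. Nefm itself averaged 2.74 ± 2.02 CPM in the macula densa samples (SD, n = 4) and 1.36 ± 1.02 CPM in the control samples (SD, n = 8), or a log2 fold change of 0.91 (edgeR adjusted p = 0.206). With the counts of Nefl and Nefm summed, the averaged log2 fold change was 1.59 (SE 0.40, edgeR adjusted p = 0.0153).

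Between the populations Nefl lay beside markers of the thick ascending limb, the segment that contains the macula densa: their 7 genes summed to 2291 to 4138 CPM in macula densa cells and to 201 to 1522 CPM in control cells. Slc12a1 was the largest in macula densa cells, at 1920 CPM there and 202.5 CPM in control cells. Of the 7 markers 4 were called higher, and Umod, Kcnj1 and Egf did not pass (edgeR adjusted p = 0.691, 0.0590 and 0.0880). Control-cell replicate 4 on control diet had both the highest control-cell sum, 1522 CPM, and the highest control-cell Nefl. Within a population the values did not follow each other otherwise. The next highest control-cell Nefl values, 1.73 and 1.60 CPM, had sums of 309 and 276 CPM, and the macula densa library with the highest Nefl, 7.66 CPM, had the lowest macula densa sum, 2291 CPM. The part of tubule segment in the Nefl difference was not tested. The summed markers of nerve overlapped between the populations. The 6 Schwann cell and peripheral nerve markers with a row summed to 5.54 to 9.96 CPM in macula densa cells and 6.56 to 11.6 CPM in control cells. Of the 4 tested, 2 were called and are named after their values were seen. Each of the 2 passed the filter on low counts only through the population in which it was higher, so its call is no separate support. Ngfr, the low-affinity neurotrophin receptor, was higher in macula densa cells (1.85 against 0.131 CPM, log2 fold change 3.61, edgeR adjusted p = 0.0101) and Pmp22, a myelin protein, lower (0.220 against 1.96 CPM, edgeR adjusted p = 0.00749). The part of nerve in the Nefl difference was not tested. The 5 sympathetic neuron markers with a row summed to 0.718 to 1.53 CPM and 0.620 to 1.73 CPM, and Dbh, the noradrenaline-synthesising enzyme, had 0 counts in all 4 macula densa libraries.

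The closest genes to Nefl over the 12 libraries were Lrfn1, Enpp2 and Esrrg, at root mean square differences of 0.58, 0.60 and 0.60 log2 CPM, against a standard deviation of 1.39 for Nefl. Lrfn1, a synaptic adhesion protein, had means of 2.0 CPM in macula densa cells and 0.639 CPM in control cells. For Enpp2, the enzyme autotaxin, the means were 33.7 and 11.6 CPM, and for the nuclear receptor Esrrg 33.4 and 10.6 CPM.

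Ncam1 (chr9:49502136-49798925, minus strand), the neural cell adhesion molecule, was 2.16-fold higher in macula densa cells over both diets. Macula densa cells had 14.7 and 10.1 CPM on control diet and 7.66 and 4.59 CPM on the enalapril diet. Control cells had 5.90, 5.73, 4.29 and 2.48 CPM on control diet and 4.38, 4.90, 1.26 and 3.36 CPM on the enalapril diet. Of the 4 macula densa values 3 lay above every control-cell value, and the lowest lay among them.

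The averaged log2 fold change of Ncam1 was 1.11 (SE 0.32, edgeR adjusted p = 0.0267). The call was lost without control-cell replicate 3 on control diet (1.10, edgeR adjusted p = 0.0512), without macula densa replicate 1 on control diet (0.96, edgeR adjusted p = 0.101) and without macula densa replicate 1 on the enalapril diet (0.91, edgeR adjusted p = 0.103). By diet the log2 fold change was 1.42 (SE 0.43, edgeR adjusted p = 0.0667) on control diet and 0.80 (SE 0.47, edgeR adjusted p = 0.305) on the enalapril diet. The control diet value passed in DESeq2 (adjusted p = 0.0264) and without control-cell replicate 3 on the enalapril diet (edgeR adjusted p = 0.0344). It passed with no other library left out. The closest genes to Ncam1 were Dhtkd1, a mitochondrial dehydrogenase, the predicted gene Gm26083 and the cyclophilin Ppid, at root mean square differences of 0.38, 0.43 and 0.44 log2 CPM, against a standard deviation of 0.87 for Ncam1.

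Uchl1 (chr5:66676091-66687234, plus strand), the deubiquitinating enzyme also called PGP9.5 and used as a stain for nerve, was close to absent from macula densa libraries. They held 1 and 1 counts on control diet and 2 and 2 counts on the enalapril diet, or 0.10, 0.08, 0.38 and 0.33 CPM. Control cells had 7, 18, 9 and 1 counts on control diet and 22, 7, 15 and 21 counts on the enalapril diet, or 0.77, 1.69, 0.86 and 0.10 CPM and 1.69, 1.71, 3.15 and 2.14 CPM. Within each diet both macula densa values lay below all 4 control-cell values, as for 16.7% of genes on control diet and 19.5% on the enalapril diet. Over both diets replicate 4 of control cells on control diet lay among the macula densa values.

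Pooled, Uchl1 had 6 counts in macula densa cells and 100 in control cells, 7.75-fold lower after scaling (95% exact interval 3.44 to 21.6, counting error only). Uchl1 passed the filter on low counts only through control-cell libraries, where it was high, so its p-values add no support to these counts. The edgeR adjusted p over both diets was 0.0120, and 0.0590 without macula densa replicate 2 on control diet. By diet it was 0.0855 on control diet and 0.103 on the enalapril diet, and 0.0118 and 0.0313 without control-cell replicate 4 on control diet. That library had 43.7 CPM of podocyte and 44.9 CPM of endothelial markers, the lowest sums of the control cells. The control-cell library with the highest Uchl1, 3.15 CPM, had a podocyte sum of 215 CPM. The part of these cells in the Uchl1 difference was not tested. The closest genes to Uchl1 were Adamts12, a secreted metalloprotease, Smox, spermine oxidase, and the decoy receptor Tnfrsf23, at root mean square differences of 0.27, 0.46 and 0.47 log2 CPM, against a standard deviation of 1.22 for Uchl1.

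**Figure D3:**
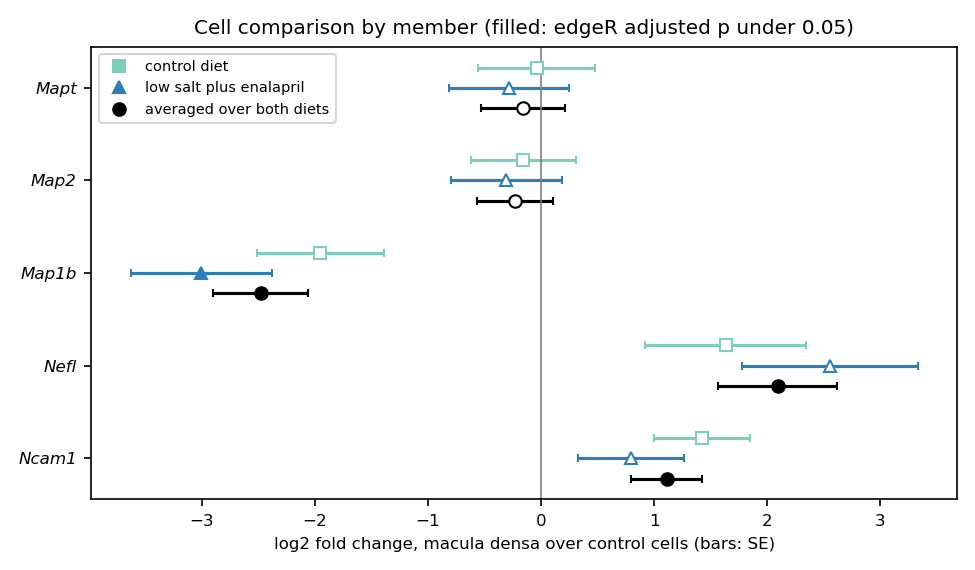
Log2 fold change of macula densa over control cells (x axis) with SE bars for 5 genes (y axis), on each diet and averaged over both, filled where the edgeR adjusted p was under 0.05. Map1b lies at -1.95 to -3.01, Nefl at 1.63 to 2.56 and Ncam1 at 0.80 to 1.42, while the Mapt and Map2 bars cross 0; Uchl1, Stmn2 and Dcx are not drawn because of their low counts.

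The order of the 4 groups differed by gene. By mean CPM, Map1b ran from control cells on the enalapril diet (24.1 CPM) and on control diet (20.3 CPM) down to macula densa cells on control diet (5.28 CPM) and on the enalapril diet (2.94 CPM). Nefl ran from macula densa cells on the enalapril diet (5.72 CPM) and on control diet (5.48 CPM) down to control cells on control diet (1.75 CPM) and on the enalapril diet (0.910 CPM). Ncam1 ran from macula densa cells on control diet (12.4 CPM) and on the enalapril diet (6.13 CPM) down to control cells on control diet (4.60 CPM) and on the enalapril diet (3.47 CPM). Neighbouring groups in these orders shared a range of library values, apart from macula densa and control cells on control diet for Nefl and macula densa cells on the different diets for Ncam1. Uchl1 was ordered like Map1b among control cells, at 2.17 and 0.854 CPM, and its macula densa means, 0.356 and 0.0920 CPM, rest on 1 or 2 counts per library. For Mapt, Map2, Stmn2 and Dcx every pair of neighbouring groups overlapped.

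Levels between genes were compared only per kilobase of exon, as CPM per kb. In macula densa cells Mapt was highest at 4.52 ± 1.27 CPM per kb (SD, n = 4), followed by Nefl at 1.66 ± 0.50, Ncam1 at 1.07 ± 0.49 and Map2 at 0.505 ± 0.071. Below these came Map1b at 0.259, Uchl1 at 0.137, Stmn2 at 0.115 and Dcx at 0.0139 CPM per kb. In control cells Mapt again led at 4.98 ± 2.39 CPM per kb (SD, n = 8), followed by Map1b at 1.40 ± 0.50, Uchl1 at 0.927 ± 0.574 and Map2 at 0.596 ± 0.281. Ncam1 at 0.466, Nefl at 0.394, Stmn2 at 0.243 and Dcx at 0.0214 CPM per kb followed. Nefl thus stood in the second place in macula densa cells and the sixth in control cells, and Map1b in the fifth and the second. Scaled by the longest transcript, the macula densa order was the same, and in control cells Map2 moved above Uchl1 and Stmn2 above Nefl.

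**Figure D4:**
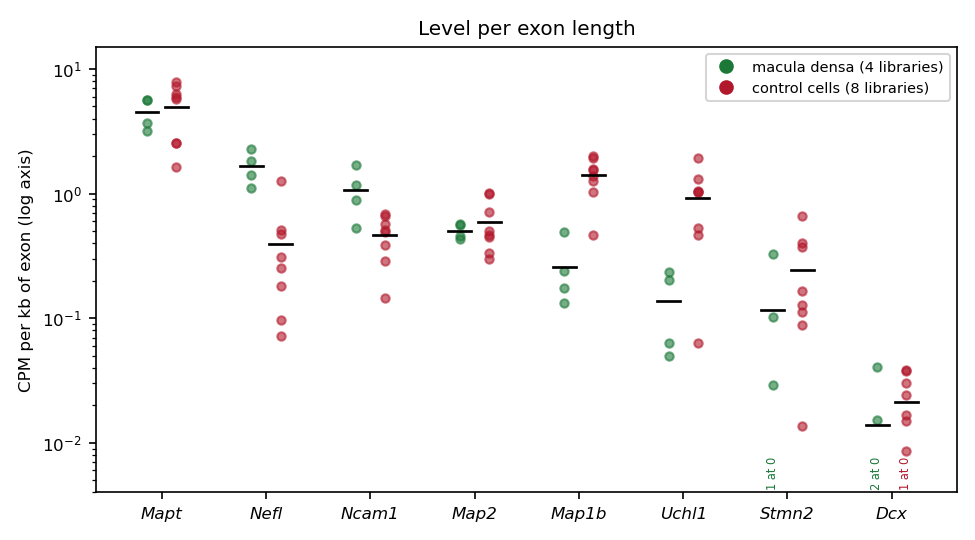
CPM per kb of exon (y axis, log scale) of the 8 genes (x axis, ordered by the macula densa mean) in 4 macula densa and 8 control-cell libraries (points), with lines for means and the number of libraries at 0 written at the base. Mapt leads in both populations at 4.52 and 4.98 CPM per kb, and Nefl, Map1b and Uchl1 change places.

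None of the 7 tested genes passed the test for an effect of the enalapril diet in either population. In macula densa cells 0 of 7 passed edgeR's test, against 0% of all genes, with none at an unadjusted p under 0.05 (11.2% of all genes) and none called by DESeq2. Ncam1 had the smallest edgeR adjusted p, 0.495, at a log2 fold change of -1.02 (SE 0.52). Mapt had -0.71 (SE 0.61), Map2 -0.35 (SE 0.55), Map1b -0.82 (SE 0.66) and Nefl 0.057 (SE 0.84). For Mapt, Map2 and Ncam1 both values on the enalapril diet lay below both on control diet, as for 21.8% of genes with 2 libraries against 2.

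In control cells 0 of 7 passed, against 0.00705% of all genes (1 gene), and DESeq2 called none of the 7. Unadjusted p-values were under 0.05 for 2 of the 7, Stmn2 and Uchl1, as for 6.45% of all genes. Each passed the filter on low counts only with the libraries of the diet on which it was higher, so these p-values are no separate support. Uchl1 had a mean of 0.854 CPM (SD 0.651, n = 4) on control diet and 2.17 CPM (SD 0.683, n = 4) on the enalapril diet. Its log2 fold change was 1.31 (SE 0.59, edgeR adjusted p = 0.767), and 3 of the 4 values on the enalapril diet lay above all 4 on control diet. The diet effects of the cell populations were also compared with each other in an interaction term. No member passed (0 of 7, against 0% of all genes; none at an unadjusted p under 0.05, against 7.03% of all genes; none in DESeq2), and the smallest edgeR adjusted p was 0.813, for Map1b at a log2 difference of -1.05 (SE 0.77). With 2 macula densa libraries per diet, diet effects of this size were not distinguishable from the spread between libraries.

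Around these members, 92 further genes of the neuronal cytoskeleton and of neuronal differentiation were listed in 9 groups. Of them 85 had a row and 67 were tested. Some, such as Basp1, Cap2, Dclk1 and Map6d1 below, passed the filter on low counts only through the population in which they were higher. Averaged over both diets 27 of the 67 were called (40.3%, against 21.3% of all genes), 6 higher and 21 lower in macula densa cells. Their median log2 fold change was -0.48, against -0.060 for all genes tested. Of the 67, 11 were called on control diet (16.4%, against 6.61% of all genes; 3 higher, 8 lower) and 7 on the enalapril diet (10.4%, near the 7.27% of all genes; 3 higher, 4 lower). Neither diet comparison nor the interaction called any of the 67. The lists were chosen with earlier results of these data known, so the shares called in them are not independent support. Besides podocyte and endothelial markers, all 7 markers of smooth muscle, pericytes and renin cells were called lower in macula densa cells, with sums of 23.8 to 54.0 CPM against 156 to 622 CPM, and the part of these cells in the lower genes was not tested.

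Among 16 other microtubule-associated proteins tested, 2 were higher and 2 lower, a share near the 21.3% of all genes. Map6d1, a relative of the stable tubule-only protein, averaged 1.40 ± 0.684 CPM over the macula densa libraries (SD, n = 4) against 0.102 ± 0.148 CPM over the control-cell libraries (SD, n = 8), with no overlap, at a log2 fold change of 3.85 (edgeR adjusted p = 0.00538). Mapre2, a protein of growing microtubule ends, was higher by 0.59 (edgeR adjusted p = 0.0466). Map1a, which resembles Map1b and acts in mature neurons, fell by 2.48 on the log2 scale (edgeR adjusted p = 0.0116). The doublecortin-like kinase Dclk1 had 6 counts against 75, 5.82-fold lower (95% exact interval 2.55 to 16.4, counting error only; edgeR adjusted p = 0.0258).

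Of 10 tubulin genes tested 5 were lower, against 13.9% of all genes called lower, and none higher. These were Tubb4b, at 9.32 ± 3.02 CPM in macula densa cells against 19.9 ± 2.52 CPM in control cells with no overlap (SD, n = 4 and n = 8; log2 fold change -1.10, edgeR adjusted p = 0.00264), Tuba1b (-1.09, edgeR adjusted p = 0.00334), Tuba1a (-1.90, edgeR adjusted p = 0.00905), Tubb2a and Tubb5. The 1 other stathmin tested, Stmn1, a tubulin-binding protein of dividing and growing cells, was lower (log2 fold change -2.22, edgeR adjusted p = 0.00457). Of 4 intermediate filament genes tested 2 were lower. Vim, the filament of mesenchymal, endothelial and podocyte cells, was at 5.41 CPM against 52.0 CPM (log2 fold change -3.49, edgeR adjusted p = 0.00225), and Nes, nestin, which podocytes also make, was at 9.74 CPM against 143 CPM (log2 fold change -4.60, edgeR adjusted p = 0.0115).

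Of 8 growth cone proteins tested 6 were lower, against 13.9% of all genes, and none higher. Basp1 and Cap2 among them passed the filter on low counts only through control cells, so their calls are no separate support. Marcksl1, an actin-linked membrane protein, had a log2 fold change of -2.69 (edgeR adjusted p = 0.00207), and Dpysl3, a collapsin response mediator, -1.84 (edgeR adjusted p = 0.0153). Basp1, a membrane protein related in function to Gap43, had 0 counts in all 4 macula densa libraries and 62 in control cells, at least 1.92-fold lower against a floor of 3 counts per library. The other called genes were Dpysl2, Cap2 and Fscn1.

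The neural adhesion molecules split, with 3 of 8 called (37.5%, against 21.3% of all genes). Cadm1, a synaptic and epithelial adhesion molecule, was higher, at 7.26 ± 2.53 CPM against 2.48 ± 1.11 CPM (log2 fold change 1.56, edgeR adjusted p = 0.00475). Alcam was lower (-1.49, edgeR adjusted p = 0.000902) and so was L1cam (-1.06, edgeR adjusted p = 0.0280). Of 7 neuronal regulators of gene expression tested, 1 was called (14.3%, against 21.3% of all genes), the splicing factor Nova2, which was lower (-3.61, edgeR adjusted p = 0.00438). Rest, the repressor of neuronal genes, was at 24.5 ± 2.78 CPM in macula densa cells and 21.3 ± 4.01 CPM in control cells and did not pass (edgeR adjusted p = 0.388); it was named after its values were seen. Of 3 ubiquitin hydrolases related to Uchl1, Uchl3 was higher, at 4.69 CPM against 1.90 CPM (log2 fold change 1.20, edgeR adjusted p = 0.0101).

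Of 10 kinesin and spectrin-skeleton genes tested 2 were higher and 2 lower (40.0%, against 21.3% of all genes). Kif1a, the motor that carries synaptic vesicle precursors along axons, averaged 6.28 ± 0.756 CPM over the macula densa libraries (SD, n = 4) against 0.710 ± 0.496 CPM over the control-cell libraries (SD, n = 8), with no overlap (log2 fold change 3.16, SE 0.42, edgeR adjusted p = 0.000458). Ank3, ankyrin-G, which anchors channels at the axon initial segment and in epithelial lateral membranes, was at 125 ± 13.8 CPM against 47.8 ± 19.4 CPM, again with no overlap (1.39, edgeR adjusted p = 0.00520). Among all genes 4.31% lay higher in every macula densa library than in any control-cell library, and 5.28% lower. Sptan1, a spectrin of the membrane skeleton, was lower in macula densa cells (-0.48, edgeR adjusted p = 0.0485).

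**Figure D5:**
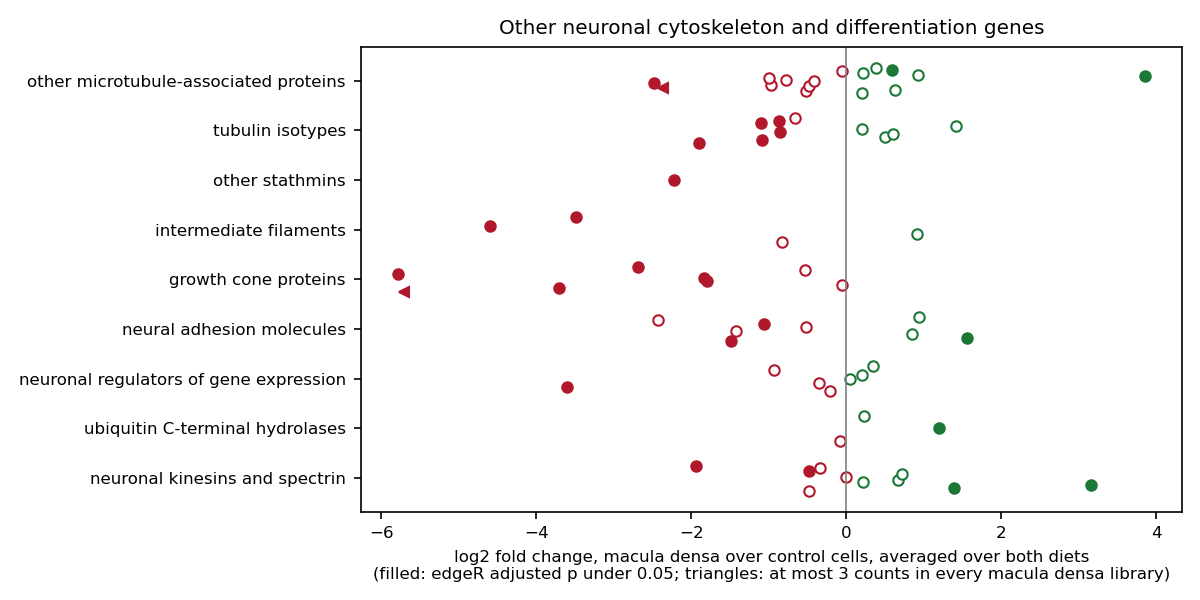
Log2 fold change of macula densa over control cells averaged over both diets (x axis) for 67 further genes in 9 lists (y axis), filled where the edgeR adjusted p was under 0.05, with triangles for genes with at most 3 counts in every macula densa library, whose fitted value is no bound. Tubulins and growth cone proteins called by the test lie below 0 (5 of 10 and 6 of 8), and Map6d1 and Kif1a lie farthest above it at 3.85 and 3.16.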

How the data were processed

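RNA of 12 sorted-cell samples was sequenced with a stranded total RNA kit. The authors deposited expected counts per gene, 16.1% of them not whole. The submitters' processing notes name STAR 2.61, Partek and mm10; filters and strand setting are not given in the sources used here. The 23378 rows, none below 10 counts in total, matched GENCODE M21 (GRCm38), 27 of them after merging entries of a symbol.

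Counts were rounded. Genes were kept by edgeR's filterByExpr (minimum count 10, total 15), scaled by TMM and fitted over all 12 libraries with 1 coefficient per group (edgeR 4.0.16, quasi-likelihood, R 4.3.3). P-values were Benjamini-Hochberg adjusted over 14180 genes, threshold 0.05. CPM are rounded counts scaled by the effective library size. DESeq2 1.42.0, other scalings and filters, blocks and left-out libraries were alternatives. Pooled low counts have exact 95% intervals.

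Members and lists were chosen with earlier results of these data known. All members were named; from each list up to 3 called genes per direction with the smallest p, and the 3 nearest genes of each called member. The values of 1 gene that this rule names are not reported here.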

Additional observations from a re-analysis of the deposited data

Results flagged for a closer look

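Mapt in replicate 4 of the control cells on control diet had a log2 CPM of 3.66 (12.4 CPM), far below the other 3 libraries of its group, which had 5.57 to 5.90. It was the only one of 14 sets of 4 control-cell libraries (7 genes in 2 diets) in which a library lay this far from the rest; chance alone gives about 1 in 20, or 0.7 of 14. That library also had the lowest podocyte sum, 43.7 CPM against 689 to 1352 CPM in the other 3. Its endothelial sum was the lowest too, 44.9 CPM against 854 to 1552 CPM. The part of podocytes or endothelium in its Mapt level was not tested.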

How the results depend on the processing

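With 2 macula densa libraries per diet, single libraries decided several calls, named beside their values in the report. Across the alternatives 29 member results changed their side of the 0.05 threshold, all in the cell comparisons (Map1b 6, Mapt 4, Ncam1 8, Nefl 8, Uchl1 3), and 35 changed sign, none of which was called. The cause was not tested.

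With library totals alone the log2 fold change was 0.036 for Map2 and 0.12 for Mapt on control diet, and 0.0028 for Mapt over both diets. The median of all genes then moved from -0.060 to 0.14, and calls over both diets split into 1827 higher and 1450 lower, against 1061 and 1966. Mapt on control diet was 0.012 with no filter and 0.0013 without mitochondrial and ribosomal RNA genes. The Nefl diet effect was -0.074 in macula densa cells with no filter, and 0.043 in control cells with Nefl and Nefm summed, a choice made after seeing the data.

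Genes called on control diet, on the enalapril diet and over both diets were 938, 1031 and 3027. DESeq2 called 2000 on control diet and 1922 on the enalapril diet, and 93, 74 and 13 for the diet effect in macula densa cells, in control cells and for their difference, against 0, 1 and 0. With a mean of at least 5 CPM, which leaves 4 members tested, 1874 genes were called over both diets and 622 on control diet. With only the groups compared, 468 were called on control diet, 105 for the macula densa diet effect and 0 for the control-cell one. Members called over both diets were 2 of 4 under the 5 CPM filter. On control diet DESeq2 called 2 members, and on the enalapril diet it also called 2. With only the groups compared, 2 of the 6 members tested were called on the enalapril diet. Of all 11568 genes tested there, 434 were called higher and 744 lower.

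Whether replicate numbers mark a pairing could not be settled. Deviations of same-numbered libraries from their group means correlated at -0.521 to 0.431 by title number. By the number in the description they correlated at 0.401, -0.0695, 0.128 and -0.0568, and the labels do not give the meaning of that number. With 2 macula densa libraries per diet, their deviations from the group mean are mirror images, so these correlations cannot decide. With the title number as a replicate block Map2 was 0.36 over both diets, 0.45 on control diet and 0.27 on the enalapril diet, and Ncam1 over both diets was 0.73 (edgeR adjusted p = 0.178). Calls were then 1908 genes over both diets, 378 on control diet, 396 on the enalapril diet and 0 for the control-cell diet effect, with 2 members on the enalapril diet. With the description number as a replicate block the Map2 diet difference was 0.055. Calls were 2292 genes on control diet, 2231 on the enalapril diet and 3 for the diet difference, with 2 members on each diet: Map1b (edgeR adjusted p = 0.00238) and Ncam1 (0.0173) on control diet, and Map1b and Mapt (-0.77, 0.0282) on the enalapril diet. Mapt also passed over both diets (-0.52, edgeR adjusted p = 0.0209). Over the 8 libraries that share such a number, 2217 genes on control diet, 2192 on the enalapril diet and 2 members on each were called.

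With each library left out in turn, members called ran from 2 to 4 over both diets and from 0 to 3 on each diet. Genes called ran from 1680 to 3968 over both diets, 122 to 2490 on control diet, 194 to 1894 on the enalapril diet, 0 to 1 for the macula densa diet effect and 1 to 5 for the control-cell one. Log2 fold changes that crossed 0 between cell populations were Map2 (-0.36 to 0.16) and Mapt (-0.35 to 0.19) on control diet, and Map2 (-0.50 to 0.11) and Stmn2 (-5.05 to 0.33) on the enalapril diet. Diet effects that did were Map1b (-1.48 to 0.046), Nefl (-0.61 to 0.43) and Stmn2 (-6.21 to 0.65) in macula densa cells, and Map1b (-0.045 to 0.56), Map2 (-0.62 to 0.11) and Nefl (-1.40 to 0.029) in control cells. Differences between diet effects did so for Map2 (-0.46 to 0.27), Mapt (-0.48 to 0.065), Stmn2 (-3.93 to 2.92) and Uchl1 (-0.14 to 0.86).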
